A study of Danio rerio with 30 samples.

Results

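The actin cytoskeleton genes described here were 10 genes for actins and actin-binding proteins, named by symbol and selected on effects already seen in the same libraries. They were actb1, actb2, pfn1, tmsb4x, cfl1, cfl1l, arpc1b, coro1a, lcp1 and capgb. Of these 10, 9 were matched to 1 gene each among the 20631 genes of the count table, and all 9 passed the low-count filter that left 19930 genes tested. The symbol capgb could not be assigned, because 2 genes carry the name CAPG. The effect of genotype and the effects of imiquimod with and without stress were used to choose the genes, so those contrasts are given for them as a description. Where calls or p thresholds are given for these genes in those contrasts, they are no test of them. The effect of stress, and its difference between genotypes, were not used and are tested.

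The libraries came from haematopoietic stem and progenitor cells of zebrafish larvae, sorted at 6 days post fertilization as the GFP-low cells of the Tg(itga2b:GFP) line, in which GFP marks CD41-expressing blood cells. All larvae carried this transgene, were either Rps14+/+ (wild type) or Rps14+/- (heterozygous for a mutation in a small ribosomal subunit gene), and were pooled by genotype after tail clips were typed. Stressed embryos were held in 1 µg/mL phenylhydrazine (Phz), which destroys red blood cells, between 24 and 48 hours post fertilization, and all groups then spent 4 days in 20 µM imiquimod, a toll-like receptor 7 agonist, or in DMSO, its vehicle. Without Phz there were 3 wild-type and 4 heterozygous DMSO libraries, and 4 and 3 with imiquimod. With Phz there were 3 wild-type and 5 heterozygous DMSO libraries, and 4 of either genotype with imiquimod. Each library is a pool of larvae, and the labels do not say that replicates were separate clutches, so the errors measure the spread between these 30 libraries. Levels are shares of a library's counts on the usual CPM scale, and because the values are shares of bulk RNA, fewer cells of a type and less RNA per cell cannot be told apart.

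Actin monomers assemble into filaments that give a cell its shape and let it crawl, divide and take up particles. Profilin and thymosin beta hold the pool of free monomers, cofilin cuts and disassembles old filaments, the Arp2/3 complex starts new branches, and coronin and plastin act on branched and bundled filaments. Blood cells, and motile leukocytes above all, depend on rapid turnover of this network.

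Total counts ran from 5703056 to 15238153 per library and the 9 genes together took 2.43 to 5.13% of them (median 3.40%). The mutated gene was lower in the labelled heterozygotes: rps14 lay between 347 and 672 CPM in the wild-type libraries and between 100 and 346 CPM in the heterozygous ones. The 11 stem and progenitor markers stood at unlike levels. MYB was the highest, between 406 and 1162 CPM, and LMO2 and TAL1 averaged 316 and 200 CPM. RUNX1 averaged 16.7 CPM, and HLF and hoxa9a averaged 0.596 and 0.740 CPM, with no count in 14 and 15 libraries. itga2b itself lay between 0.269 and 34.2 CPM, and tlr7 had no count in 16 of 30 libraries. Several neutrophil genes were abundant, led by lyz, the lysozyme gene, which averaged 10533 CPM, and npsn, at 2076 CPM. Others were low, such as cxcr1 and CXCR1, at 3.33 and 1.37 CPM. The 14 neutrophil markers summed to 15647 CPM on average, so the neutrophil sums below lean on lyz. Marker sums that moved with a result are given beside it.

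Of the actins, actb2 (ENSDARG00000037870) was lower in heterozygous than in wild-type libraries, while actb1 (ENSDARG00000037746) had like levels in both. Both encode cytoplasmic beta-actin. Their proteins are nearly the same, and how reads matching both genes were assigned was not given in the sources used here. In wild-type larvae, actb2 stood at 23998, 23795 and 28655 CPM in the unstressed DMSO libraries and at 23752, 31637, 23577 and 23080 CPM in the unstressed imiquimod libraries. After Phz the wild-type values were 21932, 20668 and 21452 CPM with DMSO, and 17634, 31401, 23115 and 18221 CPM with imiquimod. The lowest of these 14 values, and the next to lowest, were in Phz imiquimod libraries.

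The heterozygous values of actb2 were lower in most libraries. They were 13686, 14718, 16277 and 16266 CPM in unstressed DMSO libraries, and 23019, 16338 and 23658 CPM in unstressed imiquimod libraries. After Phz they were 16236, 20512, 15997, 12753 and 15805 CPM with DMSO, and 15697, 16336, 13136 and 13049 CPM with imiquimod. The unstressed imiquimod group was the exception, with 2 of its 3 libraries inside the wild-type range. Over all conditions the lowest, median and highest values were 17634, 23346 and 31637 CPM in 14 wild-type libraries, against 12753, 16117 and 23658 CPM in 16 heterozygous libraries. Only 3 of the 16 heterozygous libraries were above the lowest wild-type library.

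**Figure D1:**
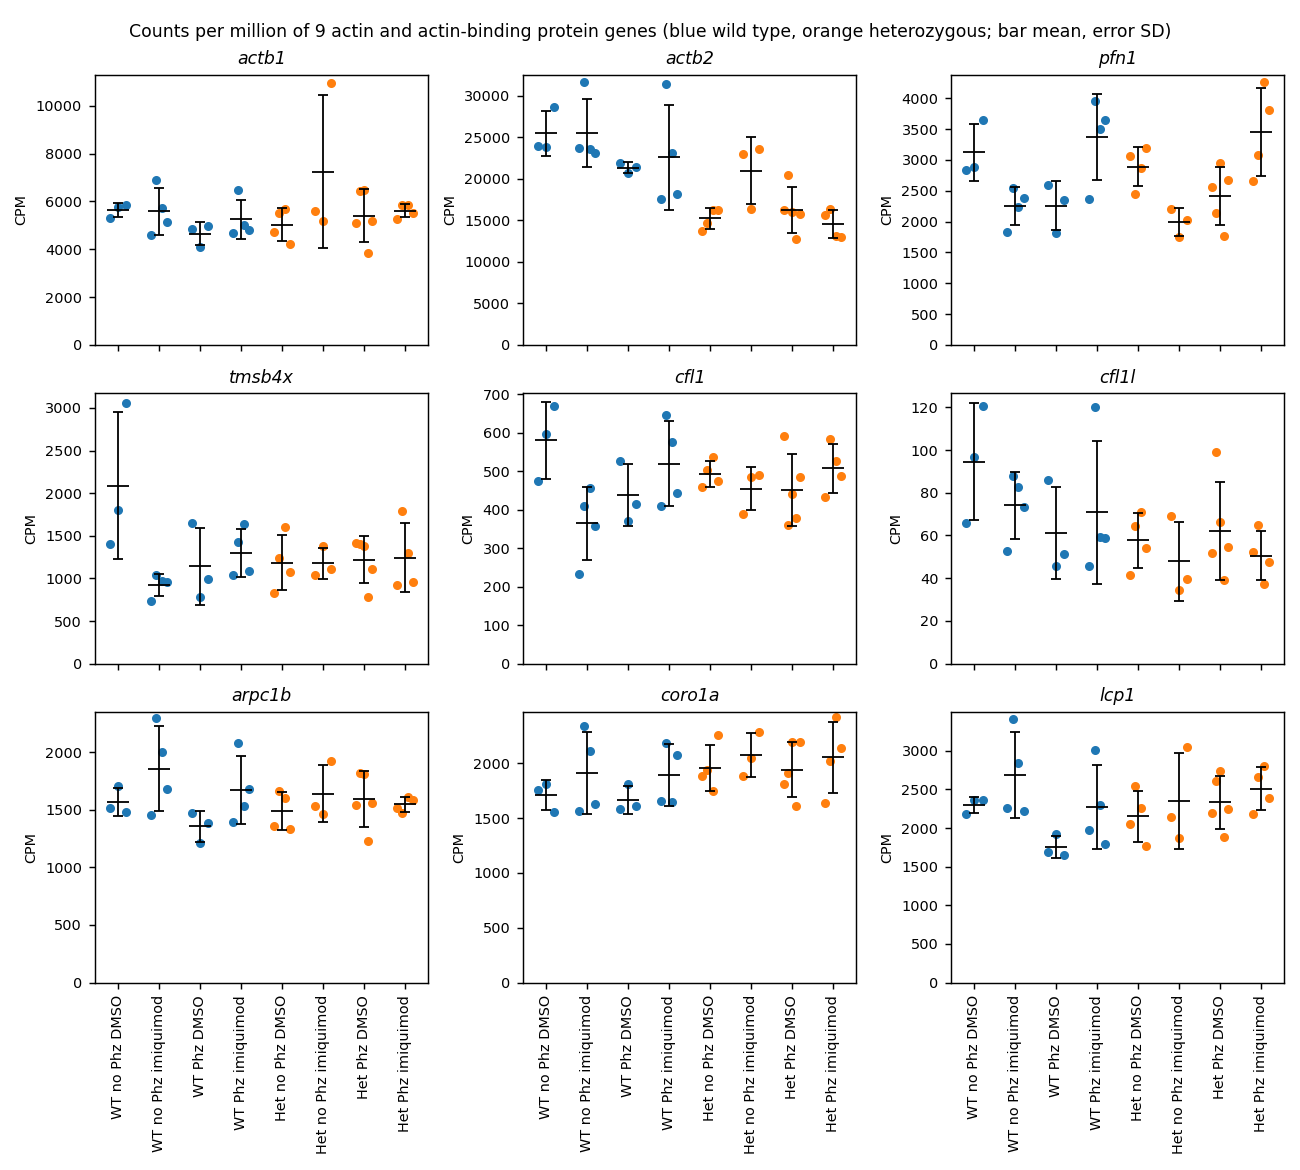
CPM of the 9 genes in each library (points), by group, on linear axes from 0; the horizontal bar is the group mean and the error bar 1 SD. Blue is Rps14+/+ and orange Rps14+/-. The heterozygous actb2 points lie mostly between 12753 and 16338 CPM, below the wild-type points, and pfn1 is low in the unstressed imiquimod groups and high in the Phz imiquimod groups of both genotypes.

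In the model with 1 coefficient for each of the 8 groups, fitted to all genes with edgeR's quasi-likelihood method, the genotype difference of actb2 was -0.61 ± 0.09 on the log2 scale (heterozygous minus wild type, ± standard error). It was the only 1 of the 9 genes past an adjusted p of 0.05 in this contrast, in which 87 of 19930 genes, 0.437%, were called; 72 of them, 0.361%, were lower in heterozygotes and 15, 0.0753%, higher. Since the contrast was used to choose the genes, nothing is read from this count. Within the conditions, the actb2 difference was -0.89 ± 0.17 in unstressed DMSO, -0.36 ± 0.18 in unstressed imiquimod, -0.46 ± 0.17 in Phz DMSO and -0.73 ± 0.16 in Phz imiquimod libraries. The genotype ranges of actb2 did not overlap in unstressed DMSO, where 6.52% of all genes had ranges without overlap, in Phz DMSO (3.21%) or in Phz imiquimod (3.42%), and they overlapped in unstressed imiquimod. With all conditions pooled, the genotype ranges overlapped for each of the 9 genes, and 0.01% of all genes had ranges without overlap.

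The levels of actb1 overlapped between the genotypes in every condition. Its lowest, median and highest values were 4096, 5084 and 6905 CPM in wild-type libraries and 3847, 5514 and 10949 CPM in heterozygous libraries, and its genotype difference was 0.04 ± 0.10 on the log2 scale. The value of 10949 CPM, in replicate 3 of heterozygous unstressed imiquimod, lay well above the other libraries of that group (5614 and 5181 CPM). The make-up of the beta-actin transcripts differed too: actb2 contributed 81.7 ± 1.48% of the summed actb1 and actb2 counts in wild-type libraries (SD, n = 14; 79.0 to 83.8%) and 74.3 ± 3.38% in heterozygous libraries (SD, n = 16; 68.4 to 80.4%). In the latter, 2 of 16 libraries were above the lowest wild-type share. This share is a ratio within a library and does not depend on its depth. It is built from counts of genes chosen on their genotype difference, so it is a description and no separate evidence. Its group mean was lower in heterozygotes in every condition. Wild-type and heterozygous means were 81.8% against 75.2% in unstressed DMSO and 82.0% against 74.9% in unstressed imiquimod. They were 82.2% against 75.1% in Phz DMSO and 80.8% against 72.0% in Phz imiquimod. The lowest share, 68.4%, was in replicate 3 of heterozygous unstressed imiquimod, where actb1 stood at 10949 CPM and actb2 at 23658 CPM. The other libraries of that group were at 80.4 and 75.9%. Whether read mapping differed between the genes was not tested.

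**Figure D2:**
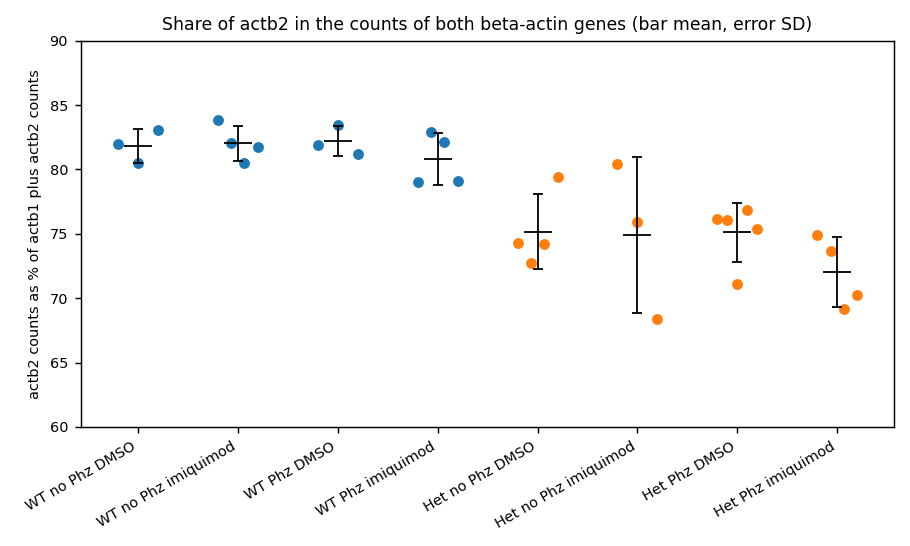
Share of actb2 in the summed actb1 and actb2 counts of each library, in percent, by group; bars are group means and error bars 1 SD. Wild-type libraries lie between 79.0 and 83.8%, and 14 of 16 heterozygous libraries lie below all of them.

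Marker lists of other cells were not level between genotypes either. The 14 neutrophil markers summed to 9433 to 35308 CPM in wild-type and 6923 to 22705 CPM in heterozygous libraries; 0 of the 14 had a positive difference, their median difference was -0.47, and none of the 14 was at 0 throughout. Of 18 macrophage markers 13 had a positive difference (median 0.22; summed levels 517 to 2072 against 425 to 3197 CPM). Of 13 exocrine pancreas markers 12 had a positive difference (median 4.83, with 477 to 1485 against 420 to 8505 CPM). The pancreas sums here and below lean on 1 gene named CPA1 (ENSDARG00000021339), which lay between 413 and 1481 CPM in all libraries (mean 779 CPM). The other genes of that list averaged 5.27 to 145 CPM, most with no count in some libraries. Endothelial markers had 10 of 12 positive (median 0.53; 21.8 to 85.8 against 26.8 to 127 CPM), skeletal muscle markers 10 of 11 (median 0.41; 15.0 to 1608 against 10.2 to 885 CPM) and epidermal markers 12 of 17 (median 0.35; 176 to 535 against 171 to 1067 CPM). Thrombocyte, erythroid and lymphoid medians lay between -0.04 and 0.00, and that of stem and progenitor markers was 0.08. No gene of these lists was called. At an unadjusted edgeR p under 0.05 were 12 of 13 exocrine pancreas, 5 of 14 neutrophil and 6 of 17 epidermal markers. These are 92.3, 35.7 and 35.3% of their lists, beside 8.98% of all genes. Endothelial, erythroid, skeletal muscle and lymphoid lists had 8.33 to 16.7%, and stem and progenitor, thrombocyte and macrophage lists 0%. The part of these cells in the actb2 difference was not tested.

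Among the monomer-binding proteins, pfn1 (ENSDARG00000088091), the profilin that charges actin monomers for assembly, showed opposite differences with imiquimod in unstressed and stressed libraries. Without Phz, pfn1 stood at 2832, 2884 and 3648 CPM in wild-type DMSO and 1828, 2550, 2238 and 2389 CPM in wild-type imiquimod libraries. The heterozygous values were 3056, 2453, 2871 and 3185 CPM with DMSO and 2203, 1750 and 2030 CPM with imiquimod. Within each genotype, every unstressed imiquimod library was below every unstressed DMSO library.

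After Phz the order was turned. Wild-type libraries stood at 2595, 1821 and 2349 CPM with DMSO and 2361, 3961, 3497 and 3648 CPM with imiquimod. Heterozygous libraries stood at 2559, 2142, 2953, 1764 and 2671 CPM with DMSO and 2660, 3079, 4259 and 3815 CPM with imiquimod. Here the treatment ranges overlapped in both genotypes, with 1 low imiquimod library in each, replicate 1 of its group. These are labelled S5 and S6, and S1 to S6 hold no Phz DMSO library. Other unstressed imiquimod libraries are S7 to S12 and other unstressed DMSO libraries S13 to S18. Other Phz imiquimod libraries are S19 to S24 and the Phz DMSO libraries S26 to S33. Among these, effects of stress or treatment cannot be told apart from those of library number. The imiquimod difference of pfn1 was -0.53 ± 0.14 without Phz and 0.54 ± 0.13 with Phz on the log2 scale, averaged over genotype. By genotype it was -0.54 ± 0.20 (wild type) and -0.53 ± 0.20 (heterozygous) without Phz, and 0.58 ± 0.20 and 0.49 ± 0.17 with Phz.

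tmsb4x (ENSDARG00000077777), the thymosin beta-4 gene, whose product sequesters actin monomers, had its clearest difference with imiquimod in unstressed wild-type libraries. The values there were 1403, 1807 and 3053 CPM with DMSO and 733, 1037, 972 and 954 CPM with imiquimod. The heterozygous values were 827, 1239, 1603 and 1072 CPM with DMSO and 1036, 1386 and 1108 CPM with imiquimod, and overlapped. The imiquimod difference without Phz was -1.25 ± 0.28 in wild-type and -0.01 ± 0.29 in heterozygous libraries, or -0.63 ± 0.20 averaged, and whether it differed between genotypes was not tested. With Phz it was 0.09 ± 0.19. A single library, replicate 3 of wild-type unstressed DMSO, held the highest value of all 30, and without it the averaged difference without Phz moved to -0.43.

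Of the cofilins, which sever filaments, cfl1 (ENSDARG00000021124) followed a like course. In unstressed wild-type libraries it stood at 473, 597 and 670 CPM with DMSO and 234, 408, 456 and 359 CPM with imiquimod, without overlap. In unstressed heterozygous libraries the ranges were 459 to 536 CPM with DMSO and 389 to 490 CPM with imiquimod, and overlapped. Its imiquimod difference was -0.43 ± 0.15 without Phz (-0.74 ± 0.21 in wild-type, -0.12 ± 0.21 in heterozygous libraries) and 0.20 ± 0.14 with Phz. cfl1l (ENSDARG00000012972), a second cofilin-like gene with 214 to 855 counts per library, had a genotype difference of -0.55 ± 0.17. Its lowest, median and highest values were 45.5, 69.7 and 121 CPM in wild-type and 34.6, 53.2 and 99.2 CPM in heterozygous libraries, so the ranges overlapped widely. Without the libraries labelled S1 to S6, which are replicate 1 of 6 groups, its genotype difference was -0.76 ± 0.18.

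The genes that act on branched and bundled filaments varied least. arpc1b (ENSDARG00000027063), a subunit of the Arp2/3 complex, ranged over 1212 to 2294 CPM, coro1a (ENSDARG00000054610), the leukocyte coronin, over 1557 to 2423 CPM, and lcp1 (ENSDARG00000023188), the leukocyte plastin that bundles filaments, over 1648 to 3410 CPM in the 30 libraries. Their genotype differences were -0.13 ± 0.08, 0.07 ± 0.08 and -0.03 ± 0.09. Their imiquimod differences lay between 0.10 and 0.16 without Phz and between 0.12 and 0.23 with Phz. The remaining genotype differences were -0.14 ± 0.10 for pfn1, -0.22 ± 0.14 for tmsb4x and -0.08 ± 0.10 for cfl1. By condition, tmsb4x was at -0.98 ± 0.28 in unstressed DMSO and 0.27 ± 0.28 in unstressed imiquimod. It was at 0.02 ± 0.27 in Phz DMSO and -0.16 ± 0.26 in Phz imiquimod. The same wild-type unstressed DMSO libraries enter the -0.98, the imiquimod difference of -1.25 above and the Phz difference of -0.89 below. The remaining imiquimod differences were 0.23 and 0.11 for actb1, 0.20 and -0.05 for actb2, and -0.34 and -0.05 for cfl1l, without and with Phz.

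In neither imiquimod contrast did edgeR call any of the 9 genes. All genes together gave 3 calls without Phz, 0.0151%, and 1 with Phz, 0.00502%. At an unadjusted p under 0.05 the numbers for the 9 genes were 3 without Phz (pfn1, tmsb4x and cfl1), where 7.17% of all genes were under it, and 1 with Phz (pfn1), against 9.48%. DESeq2 called 0 without Phz and 1, pfn1, with Phz, and limma voom called 0 in both. Nothing is read from these counts, since the contrasts were used to choose the genes. Ranges did not overlap between imiquimod and DMSO for pfn1, tmsb4x and cfl1 in unstressed wild type, where 8.19% of all genes had such ranges, and for actb2 and pfn1 in unstressed heterozygotes (5.36%). For Phz libraries no such case was found among the 9 genes, against 6.82% of all genes in wild type, 1.98% in heterozygotes and 0.0702% over both. Marker lists of other cells were not level between imiquimod and DMSO, with no gene of them called. At an unadjusted edgeR p under 0.05 the lists held 0 to 16.7% of their genes without Phz and 0 to 27.8% with Phz. Without Phz, epidermal markers had 5 of 17 positive differences (median -0.69; summed levels 176 to 1067 CPM with DMSO and 211 to 565 CPM with imiquimod) and thrombocyte markers 3 of 7 (median -0.69; 110 to 341 against 148 to 305 CPM). Exocrine pancreas markers had 12 of 13 positive (median 1.86; 563 to 5169 against 477 to 3995 CPM) and skeletal muscle markers 10 of 11 (median 0.54; 15.0 to 885 against 10.2 to 265 CPM). With Phz, macrophage markers had 15 of 18 positive (median 0.59; 425 to 1626 against 873 to 1562 CPM), epidermal markers 14 of 17 (median 0.46; 171 to 630 against 293 to 503 CPM) and skeletal muscle markers 8 of 11 (median 1.98; at most 232 against 36.0 to 1608 CPM). Stem and progenitor markers had 3 of 11 positive without Phz (median -0.08) and 2 of 11 with Phz (median -0.21). Lymphoid markers had 8 of 12 positive without Phz (median 0.31) and 5 of 12 with Phz (median -0.14). In unstressed wild-type libraries the lymphoid markers summed to 343 to 427 CPM with DMSO and 452 to 636 CPM with imiquimod. Neutrophil medians were 0.03 in both contrasts. The part of all these cells in the pfn1, tmsb4x and cfl1 differences was not tested.

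**Figure D3:**
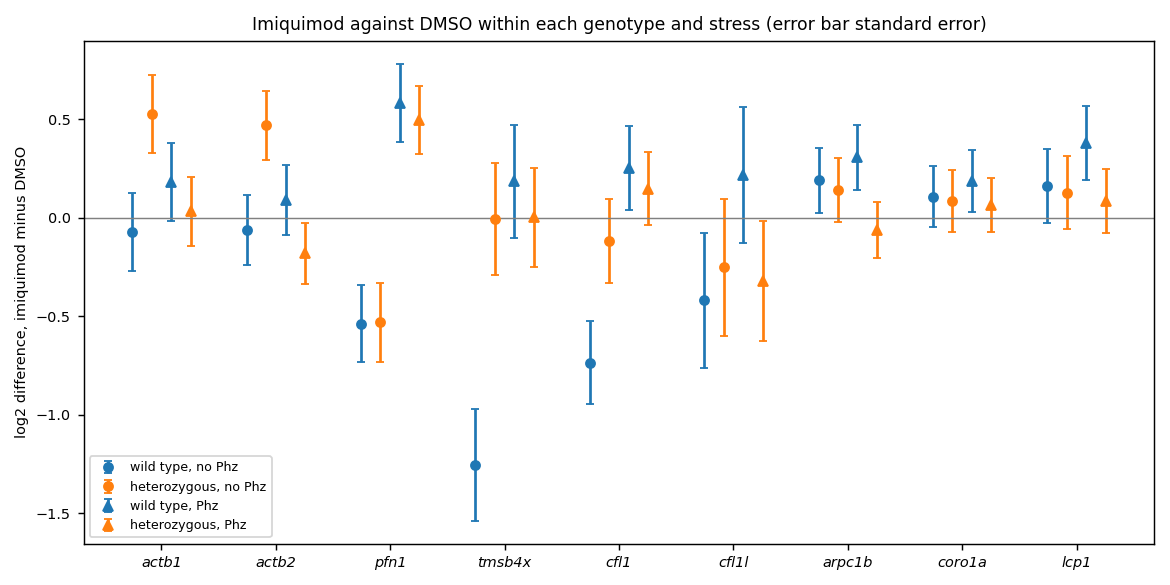
Log2 difference between imiquimod and DMSO for each of the 9 genes within each genotype and stress; points are estimates of the 8-group model and error bars standard errors. pfn1 lies at -0.54 and -0.53 without Phz and at 0.58 and 0.49 with Phz (wild type, heterozygous), and the lowest point is that of tmsb4x in unstressed wild-type libraries, at -1.25.

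Stress was not used to choose the genes, and no effect of Phz on them was detected. Averaged over genotype and treatment, edgeR called 0 of the 9 genes, against 4 of all genes, 0.0201% (0.01% higher and 0.01% lower); DESeq2 and limma voom also called 0 of the 9. The lowest p was that of actb2, the only one under 0.05 unadjusted, with a difference of -0.19 ± 0.09 (edgeR adjusted p = 0.37). Its lowest, median and highest values were 13686, 23329 and 31637 CPM without Phz (n = 14) and 12753, 16985 and 31401 CPM with Phz (n = 16). Both pools mix the genotypes, and the Phz pool holds more heterozygous libraries. These medians thus also carry genotype, over which the model's difference is averaged. pfn1 was at 0.19 ± 0.10 (edgeR adjusted p = 0.42), with 1750, 2501 and 3648 CPM against 1764, 2665 and 4259 CPM. For both genes the ranges overlapped over most of their length. actb1 was at -0.13 ± 0.10, and the other 6 genes lay between -0.10 and 0.07, with standard errors of 0.08 to 0.17.

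The Phz differences in the 4 backgrounds were spread more widely, and none passed the threshold. In wild-type DMSO libraries the Phz difference was negative for all 9 genes, with a median of -0.41. The libraries of this comparison also enter the genotype and imiquimod contrasts used to choose the genes. The matching share of all genes is not given here, so nothing is read from this count. The furthest from 0 was tmsb4x at -0.89 ± 0.31 (edgeR adjusted p = 0.44), and the nearest was coro1a at -0.05 ± 0.17. In the same libraries neutrophil markers summed to 12818 to 35308 CPM without and 10292 to 18096 CPM with Phz, macrophage markers to 640 to 2072 against 517 to 886 CPM, and erythroid markers to 852 to 2711 against 2086 to 3943 CPM. Lymphoid markers summed to 343 to 427 against 530 to 656 CPM, and stem and progenitor markers to 975 to 1691 against 1036 to 2336 CPM. Their part was not tested. In heterozygous DMSO libraries the Phz difference was positive for 7 of 9 genes, with a median of 0.15 and a highest value of 0.17 for lcp1. The same limits hold for this count. Under imiquimod, pfn1 was at 0.63 ± 0.18 in wild-type and 0.82 ± 0.20 in heterozygous libraries (edgeR adjusted p = 0.46 and 0.35). These comparisons share their libraries with the imiquimod contrasts above, so the pfn1 values are not separate from that description.

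The test of the genotype difference in the Phz response, averaged over treatment, called none of the 9 genes. edgeR called 0 of all 19930 genes, 0%, in this contrast; at an unadjusted p under 0.05 there were 1108 genes, among them 1 of the 9, lcp1. DESeq2 called 23 genes and limma voom 0, and neither called any of the 9. The estimate was 0.45 ± 0.18 for lcp1 (edgeR adjusted p = 0.85), 0.47 ± 0.33 for cfl1l (edgeR adjusted p = 0.97) and 0.02 ± 0.17 for actb2, whose sign changed in 7 of 30 fits with a library left out. lcp1 stood at 2183, 2363 and 2361 CPM in wild-type unstressed DMSO and at 1693, 1919 and 1648 CPM in wild-type Phz DMSO libraries, without overlap. The ranges of actb1, actb2, pfn1 and arpc1b did not overlap between these libraries either. The share of all genes with such ranges is not given here, so nothing is read from this for lcp1. The heterozygous counterparts of lcp1 were 2047, 2544, 2253 and 1768 CPM without Phz, and 2197, 2608, 2738, 1879 and 2245 CPM with Phz. Of the 9 estimates 8 were positive, with a median of 0.21, beside 52.7% positive and a median of 0.04 over all genes. The libraries also enter the contrasts used to choose the genes, and the 9 genes varied together within groups. Nothing is read from this count either. In this contrast neutrophil markers had 13 of 14 positive estimates (median 0.26), erythroid markers 1 of 16 (median -0.80), epidermal markers 3 of 17 (median -0.69) and skeletal muscle markers 1 of 11 (median -2.79), and their part was not tested.

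**Figure D4:**
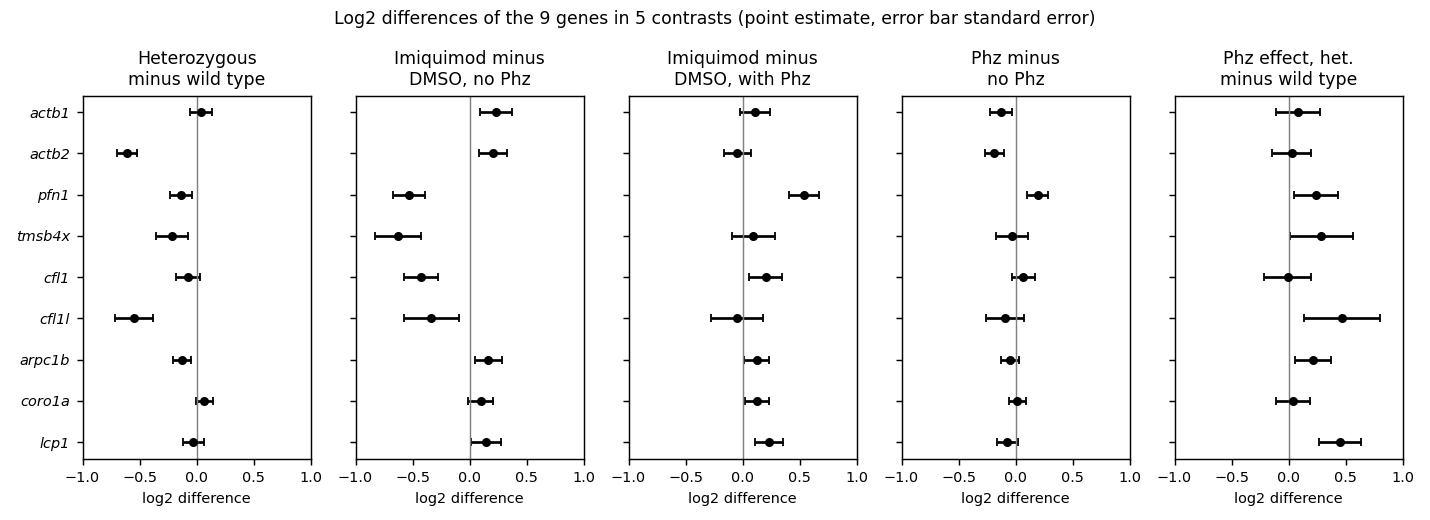
Log2 differences of the 9 genes in the 5 contrasts; points are estimates and error bars standard errors, and each panel has the same axis. In the genotype panel actb2 (-0.61) and cfl1l (-0.55) stand apart from the other 7 genes, which lie between -0.22 and 0.07, and in the Phz panel all 9 lie between -0.19 and 0.19.

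Over the 8 groups, the order of the mean levels put all 4 wild-type groups above all 4 heterozygous groups for actb2, from 25512 ± 4093 CPM (SD, n = 4) in wild-type unstressed imiquimod to 14555 ± 1709 CPM (SD, n = 4) in heterozygous Phz imiquimod. For pfn1 the order ran from 3453 ± 719 CPM (SD, n = 4) in heterozygous Phz imiquimod to 1994 ± 228 CPM (SD, n = 3) in heterozygous unstressed imiquimod. For tmsb4x it ran from 2088 ± 860 CPM (SD, n = 3) to 924 ± 132 CPM (SD, n = 4), both in unstressed wild-type libraries, with DMSO and with imiquimod. coro1a had the narrowest spread of group means, the highest 1.24 times the lowest, and tmsb4x the widest, at 2.26 times. In none of the 9 genes did 2 groups next to each other in this order have ranges without overlap. Neighbouring means differed by more than the larger of their SDs once each for actb2, pfn1 and lcp1, and never for the other 6 genes.

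Within groups, the 9 genes varied together. Deviations of log2 CPM from the group means were positively correlated in 36 of 36 pairs, with a median Pearson r of 0.52 over the 30 libraries. The closest pairs were actb1 with arpc1b (r = 0.87), actb1 with lcp1 (r = 0.86), arpc1b with lcp1 (r = 0.80), actb2 with cfl1l (r = 0.80) and tmsb4x with cfl1 (r = 0.73), and the loosest was tmsb4x with coro1a (r = 0.18). All points share library and depth, so these values are a description. Pairs of other genes were not compared, so the shared variation is not read as a trait of the 9. A few libraries were high for several genes. The summed share of the 9 genes was 5.13% in replicate 2 of wild-type Phz imiquimod, 5.07% in replicate 2 of wild-type unstressed imiquimod and 4.74% in replicate 3 of wild-type unstressed DMSO, and it was lowest, 2.43%, in replicate 4 of heterozygous Phz DMSO. The within-group SD on the log2 scale was 0.19 for coro1a and 0.21 for arpc1b, below the median of 0.29 and 0.28 for genes of like level, and 0.42 for tmsb4x against 0.29.

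The genes whose levels followed the mean of the 9 most closely over the 30 libraries, among 4704 genes compared, were nccrp1 (Pearson coefficient 0.86, Spearman coefficient 0.82), LECT2 (0.85 and 0.79), ENO3 (0.83 and 0.77), CD63 (0.83 and 0.77), ARPC3 (0.82 and 0.84), il34 (0.82 and 0.84), nfkbiaa (0.82 and 0.81) and ARPC4 (0.82 and 0.89). Of these, ARPC3 and ARPC4 encode further Arp2/3 subunits, and nccrp1 and LECT2 are on the neutrophil marker list used here. Within groups the r with the mean of the 9 was 0.88 for nccrp1, 0.84 for LECT2, 0.86 for ARPC3 and 0.80 for ARPC4. The part of neutrophil content in the shared variation was not tested. For actb2 alone the closest were ponzr6 (Pearson 0.86, Spearman 0.81), si:dkey-102g19.3 (0.84 and 0.80), mrtfab (0.84 and 0.83), LXN (0.82 and 0.82) and HACD4 (0.82 and 0.82). Within groups the r of mrtfab with actb2 was 0.67.

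The 2 genes named CAPG, for a protein that caps filament ends, were kept apart. The first (ENSDARG00000035560) averaged 6.90 CPM and had no count in 1 library. The second (ENSDARG00000099672) averaged 184 CPM, with 195 ± 35.1 CPM in wild-type (SD, n = 14) and 175 ± 41.1 CPM in heterozygous libraries (SD, n = 16). Neither was called in any of the 5 contrasts by edgeR, and which of them is capgb could not be decided.

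The wider actin cytoskeleton was followed with a list of other genes sorted by role, of which 169 were in the table and 164 were tested. The list was written with earlier results of these data known. For genotype, edgeR called 1 of the 164, close to the 0.437% of all genes, and nothing is read from that count. This gene was mrtfab (ENSDARG00000076229), a myocardin-related transcription factor, a family known in mammals to bind actin monomers and to switch on actin genes with SRF. It was lower in heterozygotes, at -0.63 ± 0.13 on the log2 scale (edgeR adjusted p = 0.0086). The lowest, median and highest values were 164, 243 and 387 CPM in 14 wild-type libraries and 90.5, 159 and 258 CPM in 16 heterozygous libraries, and overlapped. The group means were 263 against 164 CPM in unstressed DMSO, 258 against 186 CPM in unstressed imiquimod, 221 against 187 CPM in Phz DMSO and 230 against 137 CPM in Phz imiquimod, lower in heterozygotes each time.

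The next genes by p did not pass. actr3, an Arp2/3 subunit, was at -0.33 ± 0.09 (edgeR adjusted p = 0.11), MYO1F, a leukocyte myosin, at -0.43 ± 0.12 (edgeR adjusted p = 0.11), and NCKAP1L, a haematopoietic subunit of the WAVE complex that turns on Arp2/3, at -0.26 ± 0.08 (edgeR adjusted p = 0.17). Over the list 69 of 164 differences were positive, with a median of -0.08, beside 52.3% and 0.02 over all genes. By role, the Arp2/3 list had 4 of 13 positive (median -0.15), capping and severing proteins 6 of 20 (-0.14) and membrane linkers 4 of 14 (-0.14). Formins had 8 of 14 positive (0.06) and the ADF, cofilin and coronin list 10 of 17 (0.09). Nucleation promoters had 9 of 22 positive (-0.09), monomer-binding proteins 5 of 10 (-0.03) and bundling and crosslinking proteins 8 of 17 (-0.02). Tropomyosins and nonmuscle myosins had 8 of 16 positive (0.005). SRF and its cofactors, mrtfab among them, had 3 of 6 (-0.03).

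For imiquimod, edgeR called 0 of the 164 genes in either contrast, with 15 without Phz and 16 with Phz under an unadjusted p of 0.05. These are 9.15 and 9.76% of the list, beside 7.17 and 9.48% of all genes. DESeq2 called 1 and 2, and limma voom 0 and 0. NCKAP1L was highest on the list by p without Phz, at 0.43 ± 0.11 (edgeR adjusted p = 0.21), with 451, 591 and 713 CPM as the lowest, median and highest DMSO values and 726, 790 and 1095 CPM with imiquimod, 7 libraries each and without overlap; such ranges were found for 0.241% of all genes. It was followed by MRTFB at 0.85 ± 0.30 and flna at 0.42 ± 0.15 (edgeR adjusted p = 0.49 for both), and by fhod3a, a formin gene averaging under 2 CPM in both groups. With Phz the lowest p were those of FLNC, flnb and DAAM2, at means under 4 CPM in both groups.

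For Phz, edgeR called 0 of the 164 genes, with 22 (13.4%) under an unadjusted p of 0.05, beside 12.4% of all genes, while DESeq2 called 4 and limma voom 0. The lowest p was that of flna, a filamin that crosslinks filaments, at -0.47 ± 0.10 (edgeR adjusted p = 0.11), with 88.7, 157 and 265 CPM without Phz (n = 14) and 78.4, 106 and 186 CPM with Phz (n = 16). flnb, a related filamin whose symbol is shared by 2 genes, was at -3.12 ± 0.71 (edgeR adjusted p = 0.11) and averaged 7.07 CPM without and 2.25 CPM with Phz. 1 gene of the list passed when replicate 2 of heterozygous Phz DMSO was left out (flna) and 1 when replicate 3 was (flnb). MYH9, a nonmuscle myosin whose symbol is also shared, was at -0.37 ± 0.10 (edgeR adjusted p = 0.16). FLNC (ENSDARG00000018566), again a symbol shared by 2 genes, was at -3.17 ± 0.91 (edgeR adjusted p = 0.16). Of 17 bundling and crosslinking genes 3 had a positive difference (median -0.47), beside 44.2% positive and a median of -0.06 over all genes. Formins had 3 of 14 positive (-0.27) and tropomyosins and nonmuscle myosins 7 of 16 (-0.16). Nucleation promoters had 7 of 22 (-0.10), membrane linkers 5 of 14 (-0.10) and the Arp2/3 list 5 of 13 (-0.07). The ADF, cofilin and coronin list had 6 of 17 (-0.06) and capping and severing proteins 9 of 20 (-0.02). Monomer-binding proteins had 6 of 10 (0.03) and SRF and its cofactors 5 of 6 (0.18). Endothelial markers, 2 of 12 positive with a median of -0.51, moved the same way as the bundling genes (summed levels 48.1 to 127 CPM without and 21.8 to 99.98 CPM with Phz). Exocrine pancreas markers had 1 of 13 positive (median -1.11; 477 to 5169 against 420 to 8505 CPM), neutrophil markers 4 of 14 (median -0.26; 6923 to 35308 against 8312 to 22705 CPM) and erythroid markers 14 of 16 (median 0.43; 852 to 3385 against 1145 to 4349 CPM). The part of these cells was not tested.

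The genotype difference in the Phz response gave 0 calls among the 164 genes with edgeR, DESeq2 and limma voom, and 15 (9.15%) under an unadjusted p of 0.05 with edgeR, beside 5.56% of all genes. The estimates of lowest p were those of MYH9 (0.76 ± 0.21), ADD3 (1.07 ± 0.31), flna (0.69 ± 0.21) and tpm3 (0.54 ± 0.18), each with an edgeR adjusted p of 0.85. The symbol ADD3 (here ENSDARG00000040874), like MYH9, is shared by 2 genes. Of the 164 estimates 97 were positive, with a median of 0.11.

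**Figure D5:**
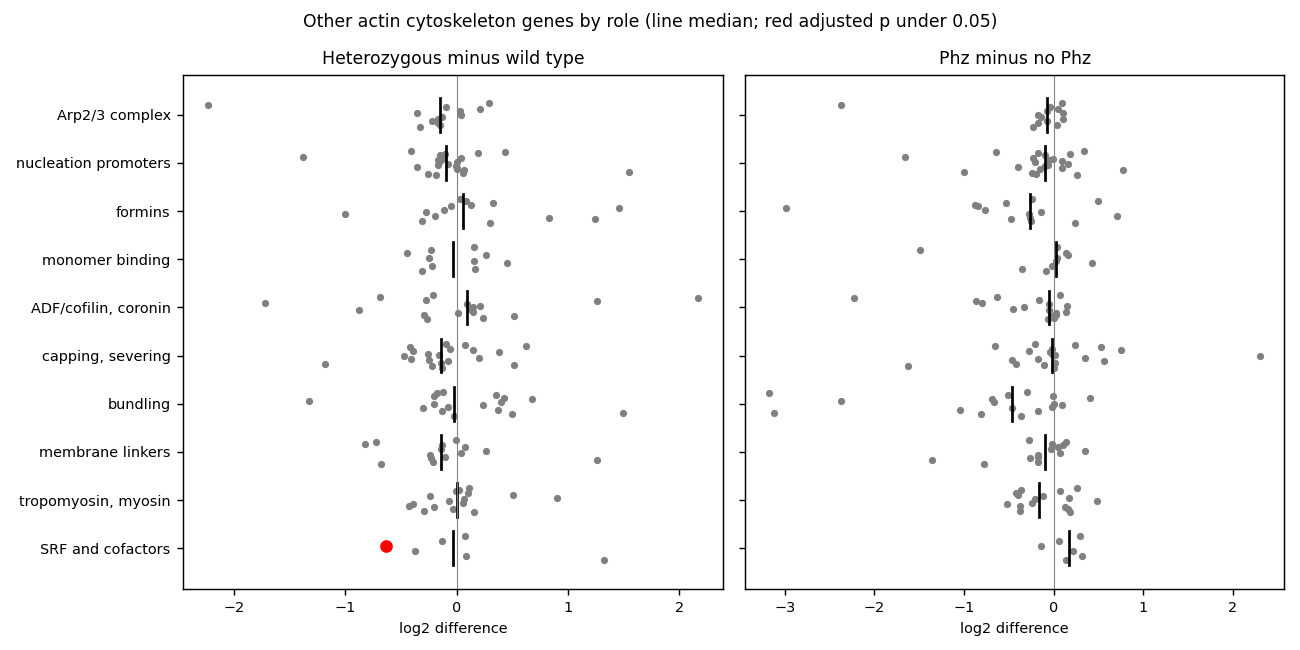
Log2 differences of the other actin cytoskeleton genes in 10 lists by role, for genotype (left) and Phz (right); each point is 1 gene, the black line is the median of its list, and the red point is the gene past an adjusted p of 0.05. The red point is mrtfab at -0.63. On the right the medians run from -0.47 (bundling) and -0.27 (formins) to 0.18 (SRF and cofactors).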

How the data were processed

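The authors deposited whole-number read counts per gene for 30 libraries, without normalization. HISAT2 2.1.0 and featureCounts of Subread 2.0.0 were used on GRCz11 per the submitters' processing notes, which also name Trimmomatic 0.39, FastQC 0.11.9, SAMtools 1.9 and DESeq2. How strand and multi-mapping reads were handled, and which annotation was used, is not given in the sources used here. Per the labels, libraries were made with Smart-seq2, whose reads carry no molecular identifiers. Symbols came from a gene name table that matched 19528 of 20631 identifiers and writes some zebrafish genes in capitals.

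edgeR 4.0.16 under R 4.3.3 fitted all 30 libraries in 1 model (TMM factors, filterByExpr by group, robust quasi-likelihood fit, 8 group coefficients). The calling threshold was 0.05 on p-values adjusted by Benjamini-Hochberg over 19930 genes. CPM were computed from the deposited counts and library totals, and log2 CPM for correlations used a prior count of 2. Standard errors follow from the F statistic. DESeq2 1.42.0, limma 3.58.1 (voom), other scaling, no filter, a replicate block, a term for libraries S1 to S6, their removal and the removal of each library were alternatives, and the fits were tested on simulated data. No 2 libraries of a group agreed within sampling noise (43 pairs, lowest chi-square per degree of freedom 18.7).

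The genes, role lists and marker lists were chosen with earlier results of these data known. Of the role lists, every gene called was named, and otherwise the 4 of smallest p per contrast; genes most like the 9 were the 8 (for actb2, 5) of highest Pearson r among those whose log2 CPM averaged 5 or more. The values of 1 role list are not reported here; its genes stay in the counts over the whole list.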

Additional observations from a re-analysis of the deposited data

Results flagged for a closer look

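Among 45 sets of values examined (9 genes in the 5 groups of 4 or 5 libraries), 1 library stood far from the others of its group. This was actb2 in replicate 2 of wild-type unstressed imiquimod, at 31637 CPM. The nearest other library of that group was at 23752 CPM, and the gap took 0.921 of the range of the group. Chance flags about 1 in 20 such sets. The same library had the next to highest summed share of the 9 genes. Without it, the genotype difference of actb2 was -0.58 on the log2 scale, against -0.61 with it, both as descriptions.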

How the results depend on the processing

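The genotype difference of actb2, a description since that contrast was used to choose the gene, ran from -0.69 to -0.51 on the log2 scale over 38 alternatives. That of mrtfab was called in 38 of 38 (-0.81 to -0.54; edgeR, DESeq2 or voom adjusted p 0.00040 to 0.038). DESeq2 called more genes throughout: 259 for genotype, 91 and 116 for imiquimod without and with Phz, 167 for Phz and 23 for the genotype difference in the Phz response. Of the 9 genes it called 2 for genotype and 1 for imiquimod with Phz, contrasts from which nothing is read for them, and of the wider list 4, 1, 2 and 4 for genotype, both imiquimod contrasts and Phz. limma voom called 0 and 12 genes for imiquimod without and with Phz and 14 for Phz. Without libraries S1 to S6, 2 of the 9 genes were called for genotype, and all genes gave 0 calls for imiquimod without Phz and 2 for Phz; a term for S1 to S6 gave 6, 0 and 13 for imiquimod without Phz, with Phz and for Phz. Library size alone gave 1 call for Phz. The cause of these shifts was not tested.

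Leaving out single libraries gave 47 to 117 calls for genotype (47 without replicate 3 of wild-type Phz DMSO, 49 without replicate 3 of heterozygous unstressed imiquimod, 56 without replicate 1 of wild-type unstressed DMSO), 0 to 5 and 0 to 4 for imiquimod without and with Phz, 0 to 8 for Phz, and 0 to 1 on the wider list for Phz. Small estimates changed sign. For Phz, coro1a moved to -0.014 with RLE factors, -0.019 with library size alone, -0.014 with DESeq2 and -0.025 with the S1 to S6 term, and spanned -0.0086 to 0.047 without single libraries; tmsb4x spanned -0.12 to 0.099 and cfl1l -0.19 to 0.015. For the genotype difference in the Phz response, actb2 was at -0.00242 with library size alone and spanned -0.053 to 0.13, cfl1 was at 0.089 without S1 to S6 and spanned -0.097 to 0.086, actb1 spanned -0.0067 to 0.29 and coro1a -0.016 to 0.089.

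The replicate numbers are shared across groups, and no label says what a number stands for. Over 94 same-numbered pairs the median correlation of deviations was 0.14 and 55 were over 0.1, against -0.08 and 109 of 298 pairs of other numbers, and 8 of 30 libraries correlated best with their own number. Same-numbered pairs thus correlated more on average. Since not every same-numbered pair was over 0.1, the numbers were not taken as a pairing in the main fit. That bar is strict for noisy deviations, so missing it does not show that the numbers carry nothing shared. With the number as a replicate block, calls became 0 for imiquimod with Phz and 0 for Phz, tmsb4x moved to 0.0099 for Phz and cfl1 to 0.0013 for the genotype difference in the Phz response, and no call among the 9 genes changed. The gene of fewest counts among the 9, cfl1l, had at least 214 reads in each library, and the wider list holds genes under 4 CPM; reads without molecular identifiers do not give the number of molecules behind these values.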
